A study of Mus musculus with 30 samples.

Results

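The genes described here are 10 genes of the hypoxia and glycolysis program, namely Slc2a1, Hk2, Aldoa, Pgk1, Eno1, Ldha, Pdk1, Bnip3, Car9 and Adm. They were chosen by symbol with earlier results of these data known, so their counts are a description and not an independent result, and all 10 were found among the 39676 genes listed for whole B16 melanoma tumors. All 10 also reached the mean count of 10 per tumor that was required for a test, as did 15926 genes in all.

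The tumors grew under the skin of C57BL/6 female mice, typically 8 to 12 weeks old, and were taken 8 days after inoculation. B16 cells, a mouse melanoma line, had been transduced with a retroviral vector for IFNα4 and green fluorescent protein (GFP), for IFNα9 and GFP, or for GFP alone. The tumors are named B16-IFNA4, B16-IFNA9 and B16-GFP accordingly, with 10 tumors of each type. All 3 types also carry herpes simplex virus glycoprotein B and firefly luciferase, so the B16-GFP tumors are transduced controls and not parental B16. The vector expresses each IFN-I subtype in the inoculated tumor cells, whereas the RNA was from whole tumors with the host cells in them. The labels call the 10 tumors of a type biological replicates.

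Cells that lack oxygen stop hydroxylating the hypoxia-inducible factor HIF-1α, which then escapes degradation through the VHL protein and pairs with ARNT to bind short DNA motifs near its target genes. The targets raise glucose uptake and glycolysis, keep pyruvate out of the citric acid cycle, remove damaged mitochondria, hold cell pH and act on blood vessels. Tumor cells and dividing cells also run glycolysis when oxygen is present, so these transcripts are not a measure of oxygen alone. B16 tumors are a fast-growing, pigmented model in which such genes are abundant.

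The motif that HIF binds has the core letters ACGTG or GCGTG. In the 250 bases before the RefSeq start of each gene (GRCm38.p6, the listed start nearest to the gene's 5′ end in GENCODE M21), 9 of the 10 genes had at least 1 such core on either strand, and the window of Aldoa had none. Several starts are listed for Ldha, Eno1, Aldoa and Pdk1, and the number of cores depended on the one taken. Aldoa, whose nearest start lay 304 bases from that end, had 1 core before each of its 2 other starts. Ldha, whose nearest start lay 4329 bases away, had 5 cores there and 1 before the other start, and Pdk1 had 1 and 0. Among the windows of the first listed start of 27025 genes, 38.6% held a core. The 4 windows printed next were picked because they belong to the glycolytic enzyme and the secreted peptide with large changes (Pgk1 and Adm), to a widely used hypoxia marker (Car9) and to the gene that passed the test in neither comparison with B16-GFP (Hk2). They lie at chrX:106186850-106187099 on the plus strand (Pgk1), chr7:110627407-110627656 on the plus strand (Adm), chr4:43506776-43507025 on the plus strand (Car9) and chr6:82774455-82774704 on the minus strand (Hk2). Each is written 5′ to 3′ toward the gene, and capitals mark ACGTG or GCGTG, or CACGT or CACGC where the core is on the other strand.
Pgk1: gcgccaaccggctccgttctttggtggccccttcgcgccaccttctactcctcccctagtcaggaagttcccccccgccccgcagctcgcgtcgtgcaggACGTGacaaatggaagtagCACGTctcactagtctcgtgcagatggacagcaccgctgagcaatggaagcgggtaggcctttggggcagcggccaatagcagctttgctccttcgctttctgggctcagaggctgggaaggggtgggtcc
Adm: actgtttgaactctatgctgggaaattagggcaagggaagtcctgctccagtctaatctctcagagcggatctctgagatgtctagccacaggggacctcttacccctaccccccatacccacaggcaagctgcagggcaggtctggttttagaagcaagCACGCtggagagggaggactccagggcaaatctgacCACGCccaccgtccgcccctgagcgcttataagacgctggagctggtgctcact
Car9: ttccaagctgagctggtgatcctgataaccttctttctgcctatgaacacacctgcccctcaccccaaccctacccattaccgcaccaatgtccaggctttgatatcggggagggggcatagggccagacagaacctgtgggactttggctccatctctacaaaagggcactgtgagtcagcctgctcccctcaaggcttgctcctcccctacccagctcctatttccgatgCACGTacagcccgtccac
Hk2: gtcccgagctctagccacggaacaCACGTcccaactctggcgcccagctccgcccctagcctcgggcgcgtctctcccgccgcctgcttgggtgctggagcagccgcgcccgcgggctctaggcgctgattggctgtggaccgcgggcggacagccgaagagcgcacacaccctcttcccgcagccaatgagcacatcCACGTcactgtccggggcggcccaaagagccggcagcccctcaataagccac
Hk2, which was not called in either comparison with B16-GFP, had 2 cores, as Pgk1 and Adm had, and Car9 had 1. Counted back from the start, the cores began at positions -150 and -131 in Pgk1, -90 and -54 in Adm, -18 in Car9 and -226 and -52 in Hk2. Ldha and Bnip3 had 5 cores each. Those of Ldha included 2 copies of CACGTG, and Bnip3 had 1. CACGTG is the E-box that MYC and related factors also bind. It holds ACGTG on both strands and is thus counted as 2 cores, and it stood in 6.05% of all windows. The GC content of the 10 windows ran from 50.4% to 72.4%, and the shares over all windows were not matched for it.

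Each tumor had between 14598517 and 19788383 counts. A pair of tumors stood apart among their type in markers of other cells. B16-GFP tumor 7 had the highest summed level of melanocyte genes of all tumors (25994 CPM, counts scaled to a common library size) and the lowest of leukocyte genes (305 CPM), and B16-IFNA9 tumor 10 had the highest melanocyte sum of its type (9570 CPM). All 14 interferon-stimulated genes tested were higher in B16-IFNA4 and in B16-IFNA9 than in B16-GFP tumors, with summed levels of 4865 to 7579 CPM and 3574 to 4803 CPM against 315 to 1102 CPM.

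In tumors that expressed IFNα4, 9 of the 10 genes were lower than in B16-GFP tumors and none was higher, also not at an unadjusted p under 0.05 or with DESeq2. The largest differences were those of the enolase Eno1 (3.23-fold), the vasoactive peptide Adm (2.85-fold) and phosphoglycerate kinase Pgk1 (2.71-fold). In tumors that expressed IFNα9, 8 of the 10 were lower and none was higher by the same tests, led by Adm (2.42-fold), Eno1 (2.24-fold) and Pgk1 (2.06-fold). Hexokinase 2 (Hk2) passed the test in neither. These counts stand against a background in which 34.1% of all genes tested were lower and 31.3% higher in B16-IFNA4 than in B16-GFP, and 28.9% were lower and 26.9% higher in B16-IFNA9. The balance over all genes depends on the scaling, and with library totals more genes were higher than lower in both. The median log2 fold change of the 10 genes was -0.94 in B16-IFNA4 and -0.81 in B16-IFNA9, where that of all genes was 0.01 and -0.00. The types compared with B16-GFP share those control tumors. Differentially expressed genes (DEGs) are those with an adjusted p under 0.05 in edgeR's quasi-likelihood test (Benjamini-Hochberg, all genes tested). In whole tumors, fewer cells of a type and less RNA per cell cannot be told apart.

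**Figure D1:**
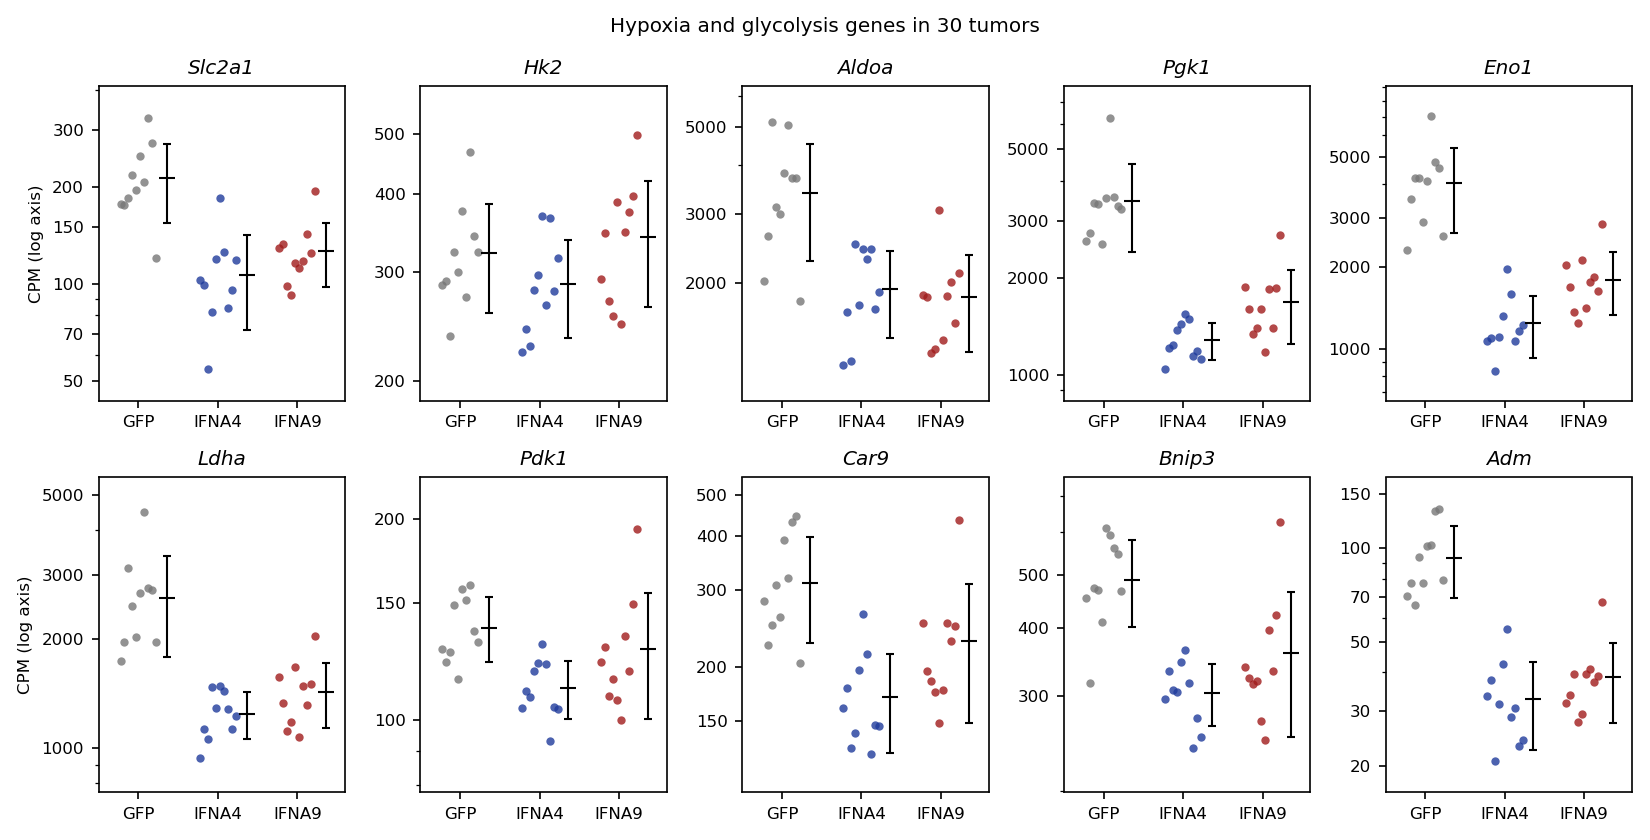
Level of each gene in every tumor, in CPM on a log axis, by tumor type (points, 10 tumors per type, and black bars for the mean ± SD). For Pgk1, Eno1, Ldha and Adm all B16-IFNA4 tumors lie below all B16-GFP tumors, whereas the 3 types overlap for Hk2.

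Slc2a1 encodes GLUT1, the carrier that brings glucose into most cells (ENSMUSG00000028645.11, chromosome 4, 119108711 to 119137983). Its level was 120.5 CPM in the lowest, 201 CPM in the median and 327 CPM in the highest B16-GFP tumor. In B16-IFNA4 tumors it ran from 54.6 to 185 CPM with a median of 101 CPM, and in B16-IFNA9 tumors from 92.3 to 195 CPM with a median of 121 CPM. Every tumor of both IFN-I types was below the B16-GFP median, and 8 B16-IFNA4 and 5 B16-IFNA9 tumors were below the lowest B16-GFP tumor. The log2 fold change was -0.995 ± 0.169 (SE, adjusted p = 8.46e-06) in B16-IFNA4 and -0.76 ± 0.17 (adjusted p = 0.000385) in B16-IFNA9.

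Hk2, the inducible hexokinase that traps glucose in the cell as its phosphate (ENSMUSG00000000628.10, chromosome 6, 82725025 to 82774454), was the only gene called in neither comparison with B16-GFP. Its level ran from 237 to 468 CPM in B16-GFP, from 223 to 369 CPM in B16-IFNA4 and from 248 to 499 CPM in B16-IFNA9 tumors, with medians of 311, 280 and 347 CPM. The 3 types overlapped over most of their ranges. The log2 fold change from B16-GFP was -0.17 ± 0.13 (adjusted p = 0.243) in B16-IFNA4 and 0.09 ± 0.13 (adjusted p = 0.573) in B16-IFNA9, and neither difference passed the test.

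Aldolase A (Aldoa, ENSMUSG00000030695.14, chromosome 7, 126795234 to 126800751) splits fructose bisphosphate in the middle of glycolysis and is also the aldolase of skeletal muscle. It ran from 1790 to 5149 CPM with a median of 3406 CPM in B16-GFP tumors, from 1231 to 2513 CPM (median 1823 CPM) in B16-IFNA4 tumors and from 1322 to 3062 CPM (median 1846 CPM) in B16-IFNA9 tumors. The ranges overlapped, and no tumor of either IFN-I type reached the B16-GFP median. Aldoa fell by 0.82 ± 0.18 on the log2 scale in B16-IFNA4 (adjusted p = 0.000249) and by 0.88 ± 0.18 in B16-IFNA9 (adjusted p = 0.000161).

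Pgk1 (ENSMUSG00000062070.12, chromosome X, 106187100 to 106203699) makes ATP in the second phase of glycolysis. In B16-GFP tumors it ran from 2543 to 6255 CPM, with a median of 3356 CPM. The highest of these, tumor 7, stood well above the next at 3555 CPM. The range was 1044 to 1546 CPM in B16-IFNA4 tumors, which thus lay wholly below the controls, and 1177 to 2723 CPM in B16-IFNA9 tumors, where tumor 10 was the only one within the B16-GFP range. The medians were 1226 and 1601 CPM. Pgk1 fell by 1.44 ± 0.14 (log2, adjusted p = 9.10e-10) in B16-IFNA4 and by 1.04 ± 0.14 (adjusted p = 6.56e-07) in B16-IFNA9.

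Eno1, the enolase of most tissues (ENSMUSG00000063524.13, chromosome 4, 150236721 to 150248879), showed the largest fall of the 10 genes in B16-IFNA4. Its levels were 2293, 4131 and 7073 CPM in the lowest, median and highest B16-GFP tumor, 832, 1138 and 1966 CPM in B16-IFNA4, and 1249, 1727 and 2850 CPM in B16-IFNA9. Again all B16-IFNA4 tumors and 9 of 10 B16-IFNA9 tumors were below every control. The log2 fold change was -1.69 ± 0.18 (adjusted p = 2.10e-09) in the former and -1.16 ± 0.17 (adjusted p = 2.69e-06) in the latter.

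Lactate dehydrogenase A (Ldha, ENSMUSG00000063229.15, chromosome 7, 46841475 to 46855627) turns pyruvate into lactate and so lets glycolysis go on without respiration. It ran from 1735 to 4490 CPM (median 2575 CPM) in B16-GFP, from 938 to 1486 CPM (median 1253 CPM) in B16-IFNA4 and from 1074 to 2045 CPM (median 1408 CPM) in B16-IFNA9 tumors. B16-IFNA4 tumors did not overlap with the controls, and among B16-IFNA9 tumors only tumor 10 did. Ldha fell by 1.06 ± 0.14 (log2, adjusted p = 2.06e-07) and by 0.86 ± 0.14 (adjusted p = 1.01e-05).

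Pyruvate dehydrogenase kinase 1 (Pdk1, ENSMUSG00000006494.11, chromosome 2, 71873224 to 71903858) blocks the entry of pyruvate into the mitochondria's citric acid cycle. It moved the least of the genes that passed the test, from 115 to 160 CPM (median 134 CPM) in B16-GFP to 93.1 to 130 CPM (median 110 CPM) in B16-IFNA4 tumors. In B16-IFNA9 tumors it ran from 100.2 to 194 CPM with a median of 120 CPM, and tumor 10 lay above all controls. The log2 fold change was -0.30 ± 0.09 (adjusted p = 0.0058) in B16-IFNA4 and -0.11 ± 0.09 (adjusted p = 0.333) in B16-IFNA9. Without B16-IFNA9 tumor 10 the latter was -0.19 and passed the test (adjusted p = 0.0366).

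Bnip3 (ENSMUSG00000078566.8, chromosome 7, 138890836 to 138909519), a mitochondrial protein that marks mitochondria for removal, ran from 317 to 611 CPM (median 472 CPM) in B16-GFP, from 240 to 364 CPM (median 306 CPM) in B16-IFNA4 and from 249 to 627 CPM (median 328 CPM) in B16-IFNA9 tumors. Here too B16-IFNA9 tumor 10 was above every control, while the other 9 were below the B16-GFP median. The fall was 1.62-fold in B16-IFNA4 (log2 fold change -0.69 ± 0.13, adjusted p = 3.51e-05) and 1.36-fold in B16-IFNA9 (-0.45 ± 0.13, adjusted p = 0.00445).

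Car9 encodes carbonic anhydrase 9, a surface enzyme that handles the acid of hypoxic cells (ENSMUSG00000028463.14, chromosome 4, 43506966 to 43513729). Its lowest, median and highest levels were 204, 297 and 447 CPM in B16-GFP, 125, 154 and 265 CPM in B16-IFNA4 and 149, 212 and 436 CPM in B16-IFNA9 tumors. All B16-IFNA4 tumors and 9 of 10 B16-IFNA9 tumors were below the B16-GFP median. The log2 fold change was -0.88 ± 0.17 (adjusted p = 6.84e-05) in B16-IFNA4 and -0.44 ± 0.17 (adjusted p = 0.0294) in B16-IFNA9. The second call was lost with library totals in place of TMM (-0.34, adjusted p = 0.0893) and when 1 of 8 single tumors was left out, B16-GFP tumor 6, 8 or 9 or B16-IFNA9 tumor 2, 3, 4, 5 or 6, where the log2 fold change was still -0.42 to -0.37 (adjusted p of up to 0.0678).

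Adm, the gene of adrenomedullin, a peptide that widens vessels and acts on endothelium (ENSMUSG00000030790.15, chromosome 7, 110627661 to 110629820), was the lowest of the 10 in CPM. It ran from 66.0 to 134 CPM (median 86.5 CPM) in B16-GFP, from 20.8 to 55.2 CPM (median 31.2 CPM) in B16-IFNA4 and from 27.7 to 67.2 CPM (median 38.2 CPM) in B16-IFNA9 tumors. No B16-IFNA4 tumor and only B16-IFNA9 tumor 10 reached the range of the controls. Adm fell by 1.51 ± 0.17 (log2, adjusted p = 8.25e-09) in B16-IFNA4 and by 1.27 ± 0.17 (adjusted p = 3.51e-07) in B16-IFNA9, the largest fall of the 10 genes in that type.

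Pgk1, Ldha, Eno1 and Adm were thus the 4 genes without overlap between B16-IFNA4 and B16-GFP tumors, and 10.0% of all genes tested were lower without overlap. None of the 10 was free of overlap between B16-IFNA9 and B16-GFP, where 3.35% of all genes were lower without overlap. A fall of at least 2-fold that passed the test was found for those 4 genes in B16-IFNA4, against 8.28% of all genes, and for Pgk1, Eno1 and Adm in B16-IFNA9, against 4.78%.

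**Figure D2:**
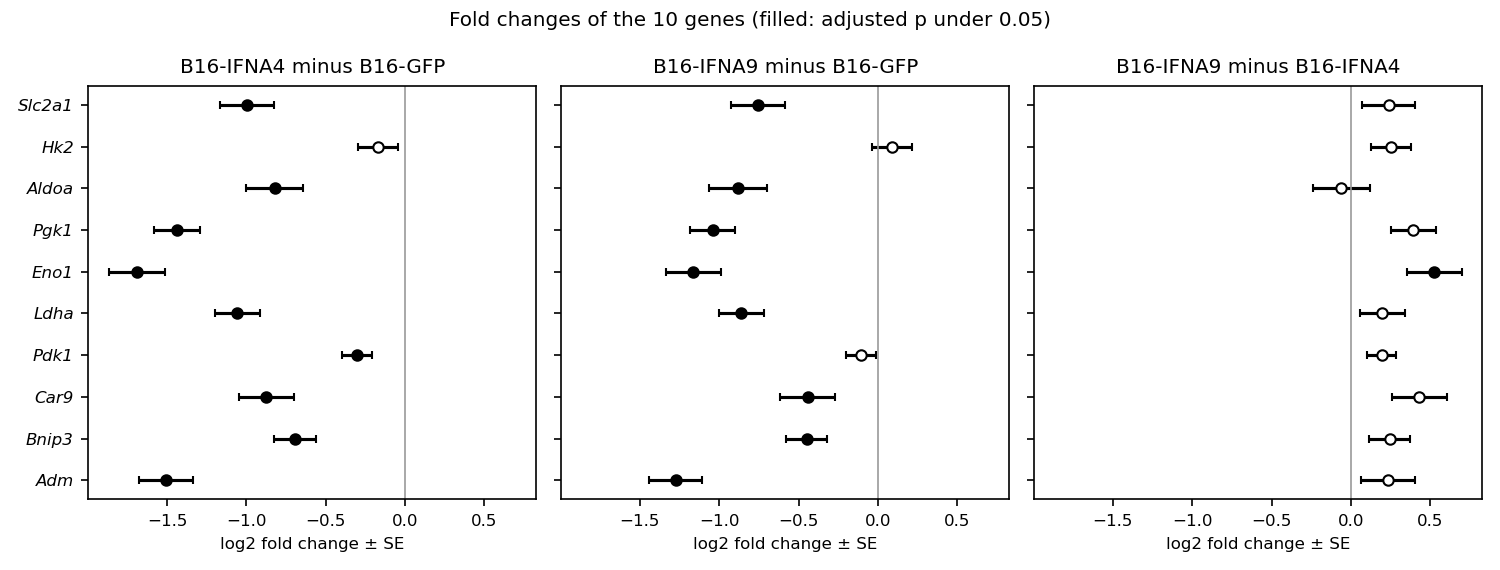
Log2 fold change with its standard error for each gene in the 3 comparisons, 10 tumors per type, with filled points for an adjusted p under 0.05. As filled points, 9 genes lie to the left of 0 in B16-IFNA4 minus B16-GFP and 8 in B16-IFNA9 minus B16-GFP, and Eno1 is the only filled point in B16-IFNA9 minus B16-IFNA4.

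B16-IFNA9 tumors were compared with B16-IFNA4 tumors directly. Eno1 was 1.44-fold higher in B16-IFNA9 (log2 fold change 0.53 ± 0.17, adjusted p = 0.0327) and was the only one of the 10 genes called, with 10.5% of all genes tested higher and 7.25% lower. Those lower numbered 1154, and 1760 without B16-GFP tumor 7. Of the 10 fold changes, 9 were positive and the median was 0.24, with an unadjusted p under 0.05 for 4 (Pgk1, Eno1, Car9 and Pdk1), but no gene other than Eno1 passed the adjusted threshold. Without B16-IFNA9 tumor 10 the median was 0.14. Pgk1 was close to the threshold at 0.39 ± 0.14 (adjusted p = 0.0514), with 6 of 10 B16-IFNA9 tumors above every B16-IFNA4 tumor, and passed it with library totals (adjusted p = 0.015), DESeq2 (0.0478), filterByExpr (0.0373) and only the 20 tumors compared (0.0232). Car9 differed by 0.43 ± 0.17 (adjusted p = 0.0808), Pdk1 by 0.19 ± 0.09 (adjusted p = 0.154) and Aldoa by -0.06 ± 0.18 (adjusted p = 0.855). The Eno1 call lay near the threshold. It was lost without B16-IFNA9 tumor 10 (0.43, adjusted p = 0.0902) and without any one of B16-IFNA4 tumors 1, 2, 3, 4, 8 and 9, where the log2 fold change was still 0.47 to 0.52 (adjusted p of 0.0509 to 0.0594), and the count of genes called ran from 0 to 3 when 1 tumor was left out.

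Per kilobase of exon, the levels in B16-GFP tumors spanned a wide range. The length is that of all exons annotated for a gene in GENCODE M21, not of the RNA expressed here. The order of the genes depends on it. In CPM without the length, Eno1 had the highest mean (4019 CPM, against 3465 CPM for Pgk1). The 4 glycolytic enzymes from aldolase to lactate dehydrogenase were the most abundant, with 1544 ± 469 CPM per kb for Pgk1, 1167 ± 388 for Aldoa, 784 ± 243 for Ldha and 747 ± 255 for Eno1 (SD, n = 10). The mean ± SD ranges of Ldha and Eno1 overlapped, as did those of Pgk1 and Aldoa, and that of Aldoa also overlapped those of Ldha and Eno1. Bnip3 (216 ± 39.5 CPM per kb) and Car9 (136 ± 37.1) came next. Slc2a1 (60.7 ± 16.6), Adm (57.7 ± 15.0) and Hk2 (53.9 ± 10.8) were alike within their spread, and Pdk1 was the lowest (17.7 ± 2.00). In B16-IFNA4 tumors Aldoa stood first with 660 ± 165 CPM per kb, next to Pgk1 with 570 ± 76.1, and Eno1 fell to 232 ± 59.2.

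Of the 10 genes, 5 share sequence with processed pseudogenes or relatives, so their counts depend on how reads with several matches were handled, which the sources used here do not give. Of the 50-base stretches in its exons, 53.9% were found in other annotated genes for Pgk1, 26.0% for Eno1, 16.5% for Bnip3, 9.03% for Ldha and 6.43% for Aldoa, against 0% for Slc2a1, Hk2, Car9, Adm and Pdk1. Means were taken for the relatives that share the most with each gene. Those of them with counts of their own were also lower in both IFN-I types by their means. The difference was small for Gm9419, a relative of Bnip3, in B16-IFNA9 (10.1 CPM, against 10.8 CPM in B16-GFP). Gm5537, which shares 53.7% of the stretches of Pgk1, averaged 310 CPM in B16-GFP, 41.5 CPM in B16-IFNA4 and 56.1 CPM in B16-IFNA9 tumors. Gm4735, which shares 19.0% of those of Eno1, averaged 677, 156 and 249 CPM. With the counts of such genes added to the parent, in a fit added after the data were seen, Pgk1 fell by 1.52 and Eno1 by 1.75 on the log2 scale in B16-IFNA4, and all 30 calls of the 10 genes in the 3 comparisons were as before. Pgk1-rs7, which shares 53.8% of the stretches of Pgk1, and Eno1b, which shares 25.3% of those of Eno1, had no row and could not be added. Relatives with a small share were also left out, such as Gm8659 with 0.507% of the stretches of Aldoa.

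The other genes of glycolysis moved mostly in the same direction. Of 14 further glycolysis genes tested, 10 were lower and 4 higher in B16-IFNA4 than in B16-GFP (median log2 fold change -0.81), and 9 were lower and 3 higher in B16-IFNA9 (median -0.54). The largest falls in B16-IFNA4 were those of the brain aldolase Aldoc (-1.81 ± 0.17, adjusted p = 2.53e-10) and of triosephosphate isomerase Tpi1 (-1.27 ± 0.15, adjusted p = 2.95e-08). In B16-IFNA9 they were those of hexokinase 1 (Hk1, -1.17 ± 0.13, adjusted p = 6.76e-09) and of the liver phosphofructokinase Pfkl (-0.98 ± 0.17, adjusted p = 2.64e-05). Hk1, the constitutive hexokinase, thus fell in both types (-1.25 in B16-IFNA4) where Hk2 was not called. Pyruvate kinase Pkm fell by 1.05 and 0.64, Gapdh by 1.12 and 0.56, and the glucose carrier Slc2a3 by 0.41 in B16-IFNA4, with a difference of -0.15 in B16-IFNA9 that did not pass the test (adjusted p = 0.256). The 4 genes that rose in B16-IFNA4 were Hk3, the hexokinase of myeloid cells (1.30 in B16-IFNA4 and 1.48 in B16-IFNA9), the neuronal enolase Eno2 (1.06 and 1.19), and the regulatory enzymes Pfkfb3 (0.46 and 0.42) and Pfkfb4 (0.74, and 0.18 in B16-IFNA9, adjusted p = 0.305). Aldoc was the list's largest difference between the IFN-I types, at 1.10 ± 0.17 higher in B16-IFNA9 (adjusted p = 2.66e-05), and Gapdh (0.56 ± 0.18, adjusted p = 0.0328) was also higher there while Pfkfb4 (-0.57 ± 0.14, adjusted p = 0.00619) was lower.

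Genes that handle lactate and pyruvate followed. Of 13 tested, 8 were lower and 1 higher in B16-IFNA4 (median -0.66), and 9 were lower and none higher in B16-IFNA9 (median -0.49). Ldhb, the other lactate dehydrogenase subunit, fell from 309 CPM in B16-GFP tumors to 109 CPM in B16-IFNA4 and 145 CPM in B16-IFNA9 tumors (means, 2.83-fold and 2.13-fold, adjusted p = 3.70e-09 and 2.04e-06). Slc16a3, the lactate exporter MCT4 and a HIF target itself, fell from 145 CPM to 57.7 and 47.7 CPM (-1.33 ± 0.20 and -1.61 ± 0.20, adjusted p = 1.07e-06 and 1.15e-07). The gene that rose in B16-IFNA4 was Pdp1, the phosphatase that undoes the action of Pdk1 (0.45 ± 0.11, adjusted p = 0.000998). Between the IFN-I types, Pdk3 was higher (0.55 ± 0.12, adjusted p = 0.00201) and Pdk4 lower (-0.99 ± 0.28, adjusted p = 0.0139) in B16-IFNA9, as was Mpc2 of the mitochondrial pyruvate carrier (-0.35 ± 0.11, adjusted p = 0.0234).

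Hypoxia targets outside glycolysis were called lower and higher in shares near those of all genes given above. Of 22 tested, 9 were lower, 6 higher and 7 not called in B16-IFNA4 (median 0.12), and 7 were lower, 5 higher and 10 not called in B16-IFNA9 (median -0.03). Vegfa, the main vessel growth factor under HIF control, had a mean of 200.1 ± 66.2 CPM in B16-GFP, 200.4 ± 43.8 CPM in B16-IFNA4 and 199.8 ± 49.0 CPM in B16-IFNA9 tumors (SD, n = 10), with log2 differences of 0.00 ± 0.16 and -0.00 ± 0.16 (adjusted p = 0.992 and 0.990). The largest falls were those of the glycogen branching enzyme Gbe1 (-1.09 ± 0.13 and -1.19 ± 0.13, adjusted p = 4.13e-08 and 2.04e-08) and of the mitochondrial protein Higd1a (-0.85 ± 0.12 and -0.68 ± 0.12, adjusted p = 6.22e-07 and 3.10e-05). Nrn1 (0.94 ± 0.28 and 0.82 ± 0.28, adjusted p = 0.00366 and 0.0123), Tmem45a (0.87 ± 0.17 in B16-IFNA4, adjusted p = 7.36e-05) and carbonic anhydrase 12 (Car12, 0.82 ± 0.27 in B16-IFNA9, adjusted p = 0.0111) led the rises, so Car12 and Car9 moved in opposite directions. A few genes of this list differed between the IFN-I types. Plod2, a collagen-modifying enzyme, was 0.54 ± 0.16 higher in B16-IFNA9 (adjusted p = 0.0148) and Bnip3l, the close relative of Bnip3, 0.29 ± 0.08 higher (adjusted p = 0.0103), while Angptl4 was lower (-0.40 ± 0.13, adjusted p = 0.025).

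Among 10 genes of oxygen sensing, 3 were lower and 5 higher in B16-IFNA4, and 5 were lower and 4 higher in B16-IFNA9. Hif1a, the oxygen-regulated HIF subunit, fell from 475 ± 145 CPM in B16-GFP to 271 ± 33.2 CPM in B16-IFNA4 and 333 ± 51.7 CPM in B16-IFNA9 tumors (SD, n = 10; log2 fold changes -0.81 ± 0.12 and -0.51 ± 0.12, adjusted p = 1.73e-06 and 0.000831), and the difference between the IFN-I types was 0.30 ± 0.12 (adjusted p = 0.0943). HIF-1α is controlled mainly at the protein, which was not measured here. Egln1, the main hydroxylase that marks HIF-1α, fell by 0.69 ± 0.08 and 0.86 ± 0.08 (adjusted p = 1.48e-08 and 4.37e-10). Vhl fell by 0.74 ± 0.11 in B16-IFNA4 and 0.29 ± 0.11 in B16-IFNA9 (adjusted p = 6.43e-07 and 0.0196) and was 0.45 ± 0.11 higher in B16-IFNA9 than in B16-IFNA4 (adjusted p = 0.0035). Arnt2, a neural partner of HIF, rose by 1.39 ± 0.19 and 1.36 ± 0.19 from a mean of 1.61 CPM (adjusted p = 2.16e-07 and 6.45e-07), Hif3a by 1.01 ± 0.26 from 1.73 CPM in B16-IFNA4 (adjusted p = 0.00121), and the coactivator Ep300 by 0.62 ± 0.09 in B16-IFNA9 (adjusted p = 2.58e-06). Hif1an, the hydroxylase that blunts HIF activity, was 0.29 ± 0.06 lower in B16-IFNA9 than in B16-IFNA4 (adjusted p = 0.0012).

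The receptor of adrenomedullin did not follow its ligand. Of the 4 receptor genes tested, Calcrl, the receptor itself, rose by 0.70 ± 0.14 in B16-IFNA4 (adjusted p = 6.10e-05), from 26.9 to 43.7 CPM, and was not called in B16-IFNA9 (0.26 ± 0.14, adjusted p = 0.103). None of its partners Ramp1, Ramp2 and Ramp3 was called against B16-GFP. Calcrl (-0.44 ± 0.14, adjusted p = 0.0243) and Ramp1 (-0.72 ± 0.23, adjusted p = 0.0319) were lower in B16-IFNA9 than in B16-IFNA4.

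**Figure D3:**
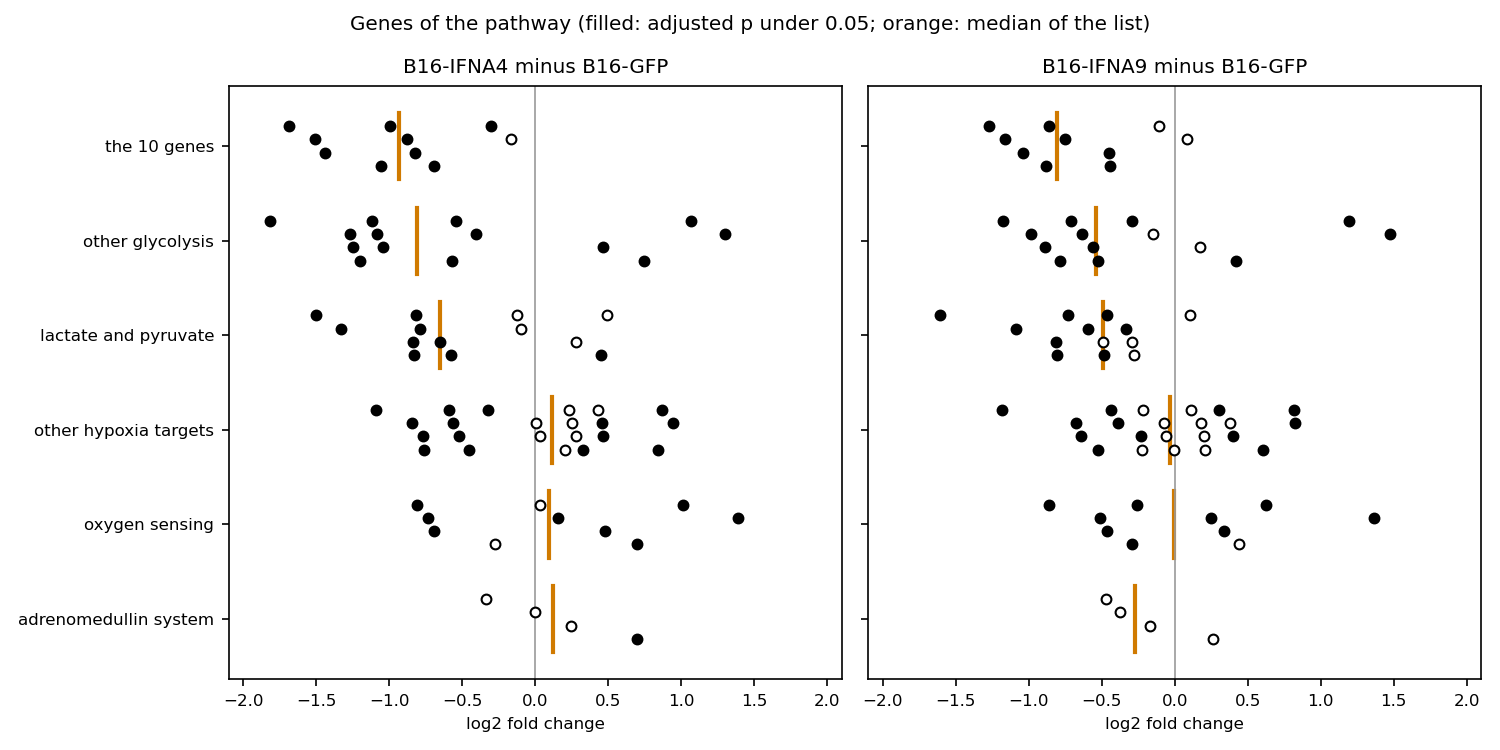
Log2 fold change from B16-GFP of each gene tested, by list, in B16-IFNA4 (left) and B16-IFNA9 (right), with filled points for an adjusted p under 0.05 and an orange line for the median of the list. The medians of the 3 upper lists lie left of 0, from -0.49 to -0.94, and those of the other hypoxia targets and oxygen sensing lie near 0, from -0.03 to 0.12.

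Most of the 10 genes also varied together among tumors of the same type. After the type means of log2 CPM were taken away, all 45 pairs correlated positively over the 30 tumors, with Pearson's r from 0.23 to 0.91 and a median of 0.59. Of these, 40 had an adjusted p under 0.05 in a two-sided permutation test (adjusted over the 45 pairs). The median r of a single one of the 10 genes with all other genes tested was between -0.02 and 0.01. This median does not tell how many pairs of other genes reach such an r, which was not counted. Genes outside the lists also reached a high r, such as Mpzl1 with Pgk1 (0.93). Within single types of 10 tumors, 42 pairs were positive in B16-GFP (median r 0.61), 43 in B16-IFNA4 (median 0.58) and all 45 in B16-IFNA9 (median 0.75). The negative ones were those of Hk2 with Pgk1 (-0.02), Ldha (-0.06) and Aldoa (-0.08) in B16-GFP, and of Bnip3 with Hk2 (-0.18) and Aldoa (-0.03) in B16-IFNA4. Bnip3 and Pdk1 were the closest pair (r = 0.91, Spearman's rho = 0.90, permutation p = 1e-05, the smallest that 100000 resamples can give, adjusted p = 3.75e-05), with r of 0.78 within B16-GFP, 0.88 within B16-IFNA4 and 0.98 within B16-IFNA9 tumors. Without the 2 tumors farthest from the median of Bnip3, r was 0.84. Pairs of Hk2 rested more on such tumors. Without the 2 tumors farthest from the median of Hk2, its r fell from 0.44 to 0.21 with Bnip3, from 0.53 to 0.31 with Car9, from 0.56 to 0.37 with Adm and from 0.57 to 0.37 with Pdk1. These 4 pairs are among the 40, and that with Bnip3 did not pass by Spearman's rho (adjusted permutation p = 0.0962). Among the enzymes Hk2, Aldoa, Pgk1, Eno1 and Ldha the median r of 10 pairs was 0.65, among Car9, Bnip3, Adm and Pdk1 the median of 6 pairs was 0.81, and between these groups that of 20 pairs was 0.54. Some pairs between the groups were closer, such as Pgk1 with Pdk1 (0.80) and Bnip3 (0.77). Slc2a1 was placed in neither group and was tied to genes of both, with r of 0.84 to Car9 and 0.76 to Eno1. Aldoa was the least tied to the second group, with r of 0.23 to Bnip3 (rho = 0.31, permutation p = 0.238, adjusted p = 0.238) and at most 0.30 to Car9, Adm and Pdk1, but of 0.84 to Ldha. The points share their libraries and scaling, and with library totals in place of TMM the median r was 0.55 and 37 pairs were called.

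**Figure D4:**
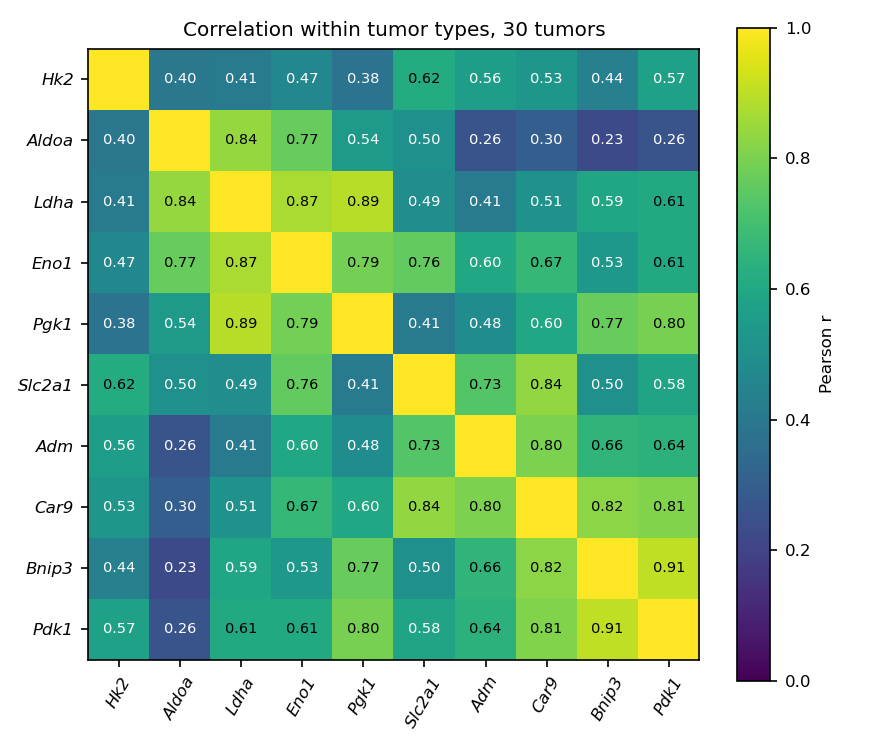
Pearson's r between each pair of the 10 genes over 30 tumors, from log2 CPM centred on the mean of each tumor type, with color from 0 to 1 and the diagonal at 1. The block of Adm, Car9, Bnip3 and Pdk1 has r from 0.64 to 0.91, and the row of Aldoa is low with those 4 genes, from 0.23 to 0.30.

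The same tumors stood at the top for most genes. B16-IFNA9 tumor 10 was the highest of its type in 9 of the 10 genes and B16-IFNA4 tumor 6 in 9 of 10, the exception in both being Aldoa. In B16-GFP the highest tumor varied, with tumor 7 highest in 3 genes (Pgk1, Eno1 and Ldha), tumor 8 in 3 (Slc2a1, Hk2 and Pdk1) and tumor 9 in 2 (Car9 and Adm). With both B16-GFP tumor 7 and B16-IFNA9 tumor 10 left out, 9 genes were lower in B16-IFNA4 and 8 in B16-IFNA9, with medians of -0.88 and -0.82. The median of B16-IFNA9 minus B16-IFNA4 was then 0.12 in place of 0.24, and 2 genes (Eno1 and Pgk1) were higher in B16-IFNA9.

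By Pearson's r of the centred values over 30 tumors, the genes most like each of the 10, out of all tested, included others of the pathway. Ldha was most like Tpi1 (r = 0.96), Got1 (0.96) and its own pseudogene Ldha-ps2 (0.95), and Eno1 most like the pseudogenes Pgam1-ps2 (0.95) and Pgam1-ps1 (0.94) and Tpi1 (0.94). Bnip3 was nearest to Gbe1 (0.94), Gm16439, a gene that shares 13.5% of its 50-base stretches (0.93), and Pdk1 (0.91). Pdk1 was nearest to Alkbh5 (0.92), Gm16439 (0.92) and Bnip3 (0.91). Car9 was nearest to Jmjd6 (0.89), P4ha2 (0.88) and Mpp2 (0.88), and Adm to Car9 (0.80), Hk1 (0.79) and 4930447F24Rik (0.79). Slc2a1 was nearest to Triobp (0.92), Slc16a3 (0.91) and Espn (0.91), and Hk2 to Gnb3 (0.88), Dpf1 (0.77) and Vegfa (0.76). Hk2 and Vegfa, both without a call against B16-GFP, thus also varied together within types. Pgk1 was nearest to Mpzl1 (0.93), Copg1 (0.92) and Vhl (0.92), and Aldoa to Cystm1 (0.95), Park7 (0.93) and St3gal3 (0.93).

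Markers of several cell types moved between the tumor types with these genes, and their part in the results was not tested. All 6 melanocyte genes with data were lower in both IFN-I types than in B16-GFP, with summed levels of 7927 to 25994 CPM in B16-GFP, 2414 to 3914 CPM in B16-IFNA4 and 3664 to 9570 CPM in B16-IFNA9 tumors. Their median log2 fold change was -1.96 in B16-IFNA4 and -1.03 in B16-IFNA9. All 7 leukocyte genes were higher in both, with sums of 305 to 952, 1357 to 2907 and 976 to 1956 CPM. All 10 cell cycle genes were lower in B16-IFNA4 and 9 of 10 in B16-IFNA9 (sums of 1281 to 2917, 535 to 686 and 760 to 1658 CPM), and all 10 were higher in B16-IFNA9 than in B16-IFNA4. All 5 erythroid genes tested were lower in both IFN-I types. With 2 more that were too low to test, the sums were 546 to 3016 CPM in B16-GFP, 184 to 899 CPM in B16-IFNA4 and 130 to 621 CPM in B16-IFNA9 tumors. Of 8 endothelial genes, 6 were lower and 1 higher in B16-IFNA4 and 5 were lower in B16-IFNA9 (sums of 222 to 537, 280 to 386 and 174 to 280 CPM).

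Skeletal muscle genes differed from this pattern. None of 11 was called in B16-IFNA4 against B16-GFP, while 7 were lower in B16-IFNA9 against B16-GFP and 9 were lower in B16-IFNA9 against B16-IFNA4 (sums of 3987 to 20011, 4756 to 16844 and 1886 to 14562 CPM). The tumor with the highest muscle sum of its type was also the one with the highest Aldoa, namely B16-GFP tumor 3, B16-IFNA4 tumor 4 and B16-IFNA9 tumor 5. Other tumors did not follow this. B16-GFP tumor 7 had 5049 CPM of Aldoa with a muscle sum of 4743 CPM. B16-IFNA9 tumor 10 had 2120 CPM of Aldoa with the lowest muscle sum of its type (1886 CPM). Among 7 keratinocyte genes, 4 were higher in B16-IFNA4, and in B16-IFNA9 2 were higher and 1 lower. Of 8 macrophage genes, 2 were higher and 2 lower in B16-IFNA4 and 2 were higher in B16-IFNA9. Of 6 neutrophil genes, 2 were higher and 2 lower in B16-IFNA4, and 1 was higher and 2 were lower in B16-IFNA9. Of 6 fibroblast genes, 2 were higher in B16-IFNA4 and 1 in B16-IFNA9.

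**Figure D5:**
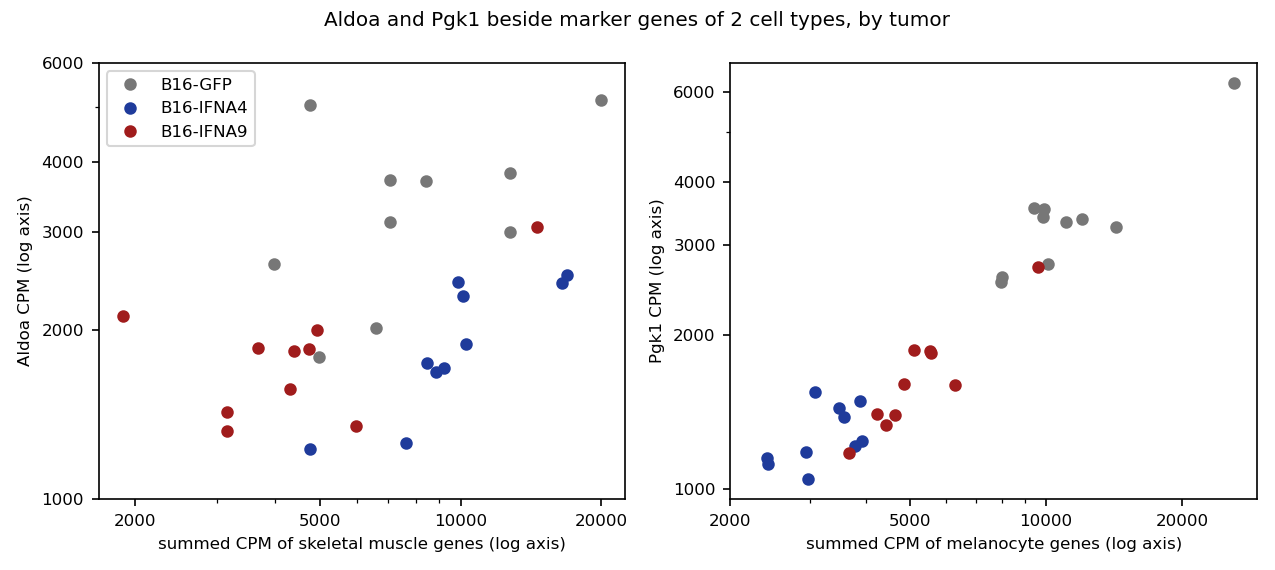
Aldoa against the summed level of 11 skeletal muscle genes (left) and Pgk1 against that of 6 melanocyte genes (right), in CPM on log axes, with 1 point per tumor colored by type. B16-GFP tumors lie at the upper right for Pgk1, led by tumor 7 at 6255 CPM, and the highest Aldoa tumor of each type lies at the right end of its own type.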

How the data were processed

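RNA of 30 whole tumors, 10 per type, was analysed. The authors made stranded mRNA libraries, sequenced single-end reads of 50 bases, checked them with FastQC 0.11.3, aligned them with HISAT2 2.0.4 and deposited the counts per gene from summarizeOverlaps, whole numbers without normalization. The build is mm10 in the submitters' processing notes and another name in the paper. Annotation, strand setting and handling of reads with several matches are not given in the sources used here. Total counts ran from 14598517 to 19788383.

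Symbols and coordinates came from GENCODE M21 (GRCm38), which held 39495 of the 39676 identifiers. Genes reaching a mean count of 10 were tested in edgeR 4.0.16 (R 4.3.3) by the quasi-likelihood test on all 30 tumors with TMM scaling, and p-values were adjusted by Benjamini-Hochberg over 15926 genes. The script was tested on simulated data. CPM are TMM-scaled, and log2 CPM took a prior count of 2. Correlations used 100000 permutations. The 10 genes and all lists were chosen with earlier results of these data known.

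Named are the 10 genes, the 2 largest rises and falls among DEGs per list and comparison, 8 preset pathway genes, the 3 most alike genes and pseudogenes with shared sequence. Pfkl, Egln1, Pfkfb3, Pfkfb4 and Hk1 are also given, some in comparisons where they were chosen after their values were seen. Listed genes without a row, such as Pfkm, Pgam1, Epas1, Ddit4, Dct and Pmel, were not analysed here. Alternatives were other scaling (DESeq2's size factors, library totals), DESeq2 1.42.0, other filters, only the 20 tumors compared, a replicate block, a threshold of 1.5-fold (glmTreat), each tumor left out, and, added after seeing the data, counts of genes with shared sequence added and a pair of tumors left out. Sharing a replicate number did not pair tumors.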

Additional observations from a re-analysis of the deposited data

Results flagged for a closer look

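In 30 groups of 10 tumors (10 genes in 3 types), 3 had a highest or lowest tumor far from the rest by Dixon's criterion, where chance flags about 1 group in 20. Pgk1 in B16-GFP tumor 7 was at 12.61 log2 CPM, with the other 9 tumors from 11.31 to 11.80. Car9 in B16-IFNA9 tumor 10 was at 8.77 log2 CPM, with the others from 7.22 to 7.98, and Adm in the same tumor was at 6.07 log2 CPM, with the others from 4.80 to 5.37. B16-GFP tumor 7 also had the highest melanocyte and cell cycle sums and the lowest leukocyte (305 CPM), keratinocyte (863 CPM), fibroblast (2889 CPM) and macrophage (462 CPM) sums of the 30 tumors. B16-IFNA9 tumor 10 had the highest melanocyte (9570 CPM) and cell cycle (1658 CPM) sums and the lowest keratinocyte (1843 CPM), skeletal muscle (1886 CPM) and macrophage (975 CPM) sums of its type. The part of these cells in the 3 values was not tested.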

How the results depend on the processing

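No fold change of a called gene changed sign under any alternative. With a required change of more than 1.5-fold, 5 of the 10 genes (Slc2a1, Pgk1, Ldha, Eno1 and Adm) were lower in B16-IFNA4 than in B16-GFP and 3 (Pgk1, Eno1 and Adm) in B16-IFNA9, 0 were higher in B16-IFNA9 than in B16-IFNA4, and the DEGs over all genes numbered 3402, 1924 and 175 in place of 10412, 8876 and 2833. This setting asks for a larger change by construction. The count of genes higher in B16-IFNA9 than in B16-IFNA4 was 2 with library totals, DESeq2, filterByExpr, only the 20 tumors compared or both B16-GFP tumor 7 and B16-IFNA9 tumor 10 left out (Eno1 and Pgk1), and 0 without a filter (Eno1 at an adjusted p of 0.0529 in edgeR's test), and the cause was not tested. With only the 20 tumors compared, 4332 genes differed between the IFN-I types, 1986 of them lower in B16-IFNA9. Car9 in B16-IFNA9 against B16-GFP was not called without a filter (adjusted p = 0.0526), with only the 20 tumors compared (0.0507) or with library totals (0.0893). For B16-IFNA4 against B16-GFP, 4977 DEGs were higher and 5435 lower, but 5412 and 4763 with library totals and 6095 and 5678 with DESeq2. Library totals gave 5051 higher and 3610 lower for B16-IFNA9 against B16-GFP, where TMM gave 4281 and 4595, and moved the median of all genes to 0.10. With 1 tumor left out, DEGs numbered 9949 to 10547, 8410 to 9195 and 2106 to 3801 (the last without B16-GFP tumor 7), the genes lower in B16-IFNA9 than in B16-GFP 7 to 9 and those higher in B16-IFNA9 than in B16-IFNA4 0 to 3. The 9 genes lower in B16-IFNA4 were 9 each time. The median fold changes were -1.03 to -0.86, -0.88 to -0.74 and 0.14 (without B16-IFNA9 tumor 10) to 0.32.

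With a replicate block, all 30 calls of the 10 genes were unchanged and 10249, 8626 and 2538 DEGs were found. Tumors with the same number correlated between types with r of -0.27 to 0.30 (median -0.05), and 3 of 30 tumors were closest to their own number. The lowest count of any of the 10 genes in a tumor was 397, and the differences of Hk2 and of Pdk1 in B16-IFNA9 did not pass the test at this spread between tumors.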
